A study of Mus musculus with 40 samples.

Results

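The BCL2 family survival genes were followed on microarrays of mouse gliomas, glioma cell lines and normal cortex. The 10 genes, chosen by name, were Bcl2, Bcl2l1, Bcl2l2, Mcl1, Bak1, Bcl2l11, Bid, Bad, Bmf and Hrk, of 18193 genes measured, and they were read by 36 of 34945 probe sets that name 1 gene. The study deleted or mutated p53 in the brain with a Cre recombinase driven by the hGFAP promoter, and profiled the tumors that formed on Affymetrix Mouse Genome arrays. RNA was hybridised to 40 arrays, 1 sample each, and every value below is a log2 signal or a difference of log2 signals.

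The 5 cortices were normal tissue, of which 3 came from hGFAP-cre+;p53floxE2-10/+ mice and 2 from hGFAP-cre-;p53floxE5-6/floxE5-6 mice. The 11 p53null gliomas came from hGFAP-cre+;p53floxE2-10/floxE2-10 mice. The 11 p53R172H gliomas and the 11 p53R172H lines came from hGFAP-cre+;p53LSLR172H/floxE2-10 mice, in which one allele carries the R172H point mutation behind a stop cassette and the other is deleted. A further 2 lines of the p53R172H genotype were grown from early biopsies. Lines were kept as spheres in neural stem cell medium with bFGF and EGF, so they also differ from the tumors in growth conditions. The promoter is active in neural stem and progenitor cells and in astrocytes, the mice were of a mixed genetic background, and exact ages are not given in the sources used here. Trp53 itself was not analysed here, so the genotypes rest on the labels.

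BCL2 proteins decide whether the outer mitochondrial membrane is opened, the step that releases cytochrome c and starts the caspases. The survival proteins BCL2, BCL-XL (Bcl2l1), BCL-W (Bcl2l2) and MCL1 hold the pore-forming effectors BAK (Bak1) and BAX in check. The BH3-only proteins BIM (Bcl2l11), BID, BAD, BMF and HRK tip this balance towards death by binding the survival proteins, and some also act on the effectors. Neurons are known to depend on BCL-XL, while MCL1 is a short-lived protein needed by many dividing and progenitor cells.

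Upstream sequences are shown for the survival gene that was highest in tumors, Mcl1, for the survival gene that fell most, Bcl2l2, and for Bcl2l11, a known target of forkhead factors. Each is the 250 bases before the RefSeq start (GRCm38.p6, plus strand, 5′ to 3′), with 1 chosen motif in capitals. Matches to other searched motifs, present in Mcl1 and Bcl2l11, were left in lower case.
Mcl1, chr3:95658471-95658720, capitals at the ETS-type motif CCGGAAG: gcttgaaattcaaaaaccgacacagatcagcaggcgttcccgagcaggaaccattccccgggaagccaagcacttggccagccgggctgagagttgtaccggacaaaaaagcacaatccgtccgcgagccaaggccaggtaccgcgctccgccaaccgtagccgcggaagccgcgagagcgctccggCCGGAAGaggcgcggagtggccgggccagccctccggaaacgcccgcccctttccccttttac
Bcl2l2, chr14:54883175-54883424, capitals at the GC box GGGCGG, read on the other strand: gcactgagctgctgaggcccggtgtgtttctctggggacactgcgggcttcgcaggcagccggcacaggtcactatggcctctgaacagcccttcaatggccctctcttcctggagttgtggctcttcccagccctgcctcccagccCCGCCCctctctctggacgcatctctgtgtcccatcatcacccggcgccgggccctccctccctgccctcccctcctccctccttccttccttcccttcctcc
Bcl2l11, chr2:128125788-128126037, the more upstream of its 2 starts, capitals at the forkhead motif GTAAACA: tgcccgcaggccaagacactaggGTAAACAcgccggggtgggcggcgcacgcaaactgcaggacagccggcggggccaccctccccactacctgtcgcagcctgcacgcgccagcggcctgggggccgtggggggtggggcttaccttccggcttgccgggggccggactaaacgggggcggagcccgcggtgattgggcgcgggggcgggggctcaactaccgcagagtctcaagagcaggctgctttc

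All 10 genes had a promoter in the reference table, with 16 starts in all, and 9 motifs were searched on both strands in the same 250 bases. The GC box GGGCGG stood before 7 genes (Bcl2, Bcl2l2, Mcl1, Bcl2l11, Bid, Bad and Hrk), against 32.7% of all 32851 promoters. CCAAT stood before 3 (Bcl2l11, Bad and Bmf), against 33.8%. CCGGAAG stood before Mcl1 and Bcl2l11, against 6.91%. GTAAACA stood before Bcl2l11 only, against 3.17%, and the E2F-type motif TTTCGCGC before Bcl2l1 only, against 0.256%. None held TTTGGCGC (0.417% of promoters), TGACGTCA (1.55%), CACGTG (6.02%) or TATAAA (12.4%). Genes with several starts had more than 1 window in which a match could fall, and a match is a string of letters, not a site shown to be used.

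Cell type markers moved with the groups and are given here once. The neuron list fell in gliomas for 10 of 10 genes, and its mean difference from cortex ranged from -7.11 to -0.24 over the 22 gliomas and from -7.52 to -5.32 over the p53R172H lines. The 3 gliomas of arrays 38, 45 and 58 lay apart from the others, with neuron scores of -0.48, -0.56 and -0.24, near those of cortex. The microglia list (11 genes) ranged from -0.81 to 2.12 in gliomas and from -4.45 to -3.96 in lines, where its defining genes Aif1 and Csf1r averaged 3.72 and 4.45, below the array medians of 5.24 to 5.47. The 7 cycling genes rose in gliomas, with scores of 1.77 to 6.66. Rbfox3, a neuronal nuclear protein, read 12.20 to 12.82 in cortex, where neurons are expected. In gliomas it ran from 4.65 to 12.79, so the highest gliomas reached the cortex range. In bulk RNA, fewer cells of a type and less RNA per cell cannot be told apart.

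Between gliomas and cortex, 8 of the 10 genes passed the test in limma at an adjusted p under 0.05, against a background of 47.2% of all genes. Mcl1, Bak1, Bmf, Bcl2l11 and Bid rose (5 of 10, background 22.6%), and Bcl2l2, Hrk and Bcl2l1 fell (3 of 10, background 24.7%). Bcl2 and Bad did not pass. The median difference over the 10 genes was 0.33, beside -0.03 over all genes. The groups did not overlap for 3 genes, Mcl1, Bak1 and Bcl2l2, where 7.50% of all genes were so separated. Of the 36 probe sets 22 passed, 13 up and 9 down, against 46.7% of all probe sets.

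**Figure D1:**
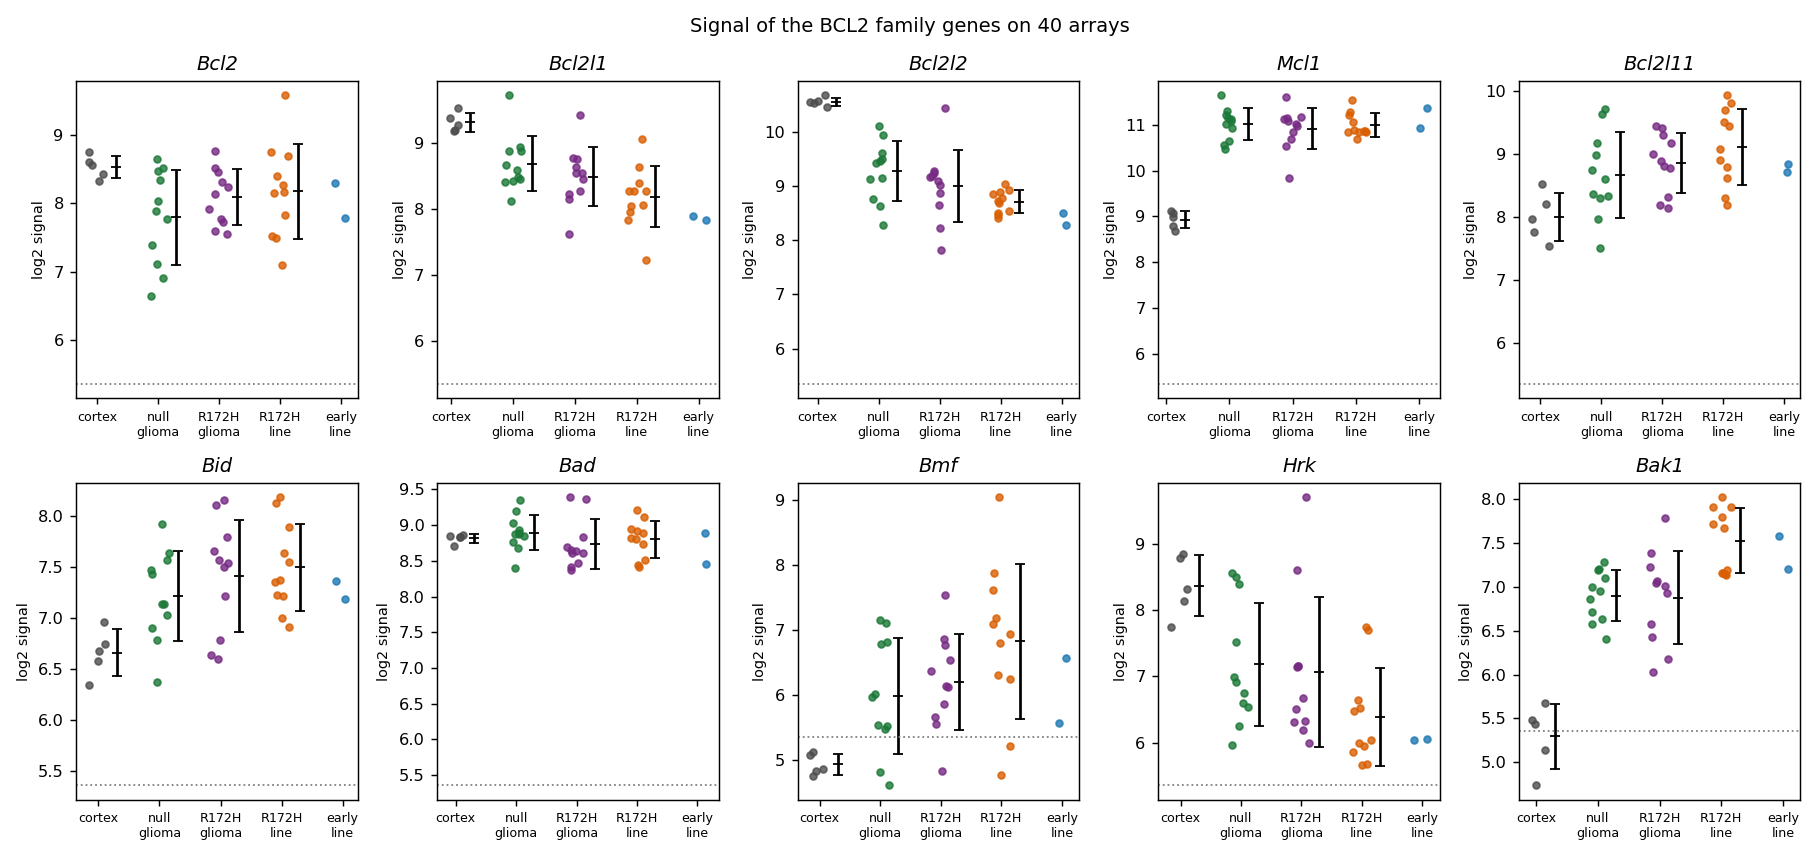
Log2 signal (y axis) of each of the 10 genes on each of the 40 arrays, by group (x axis). Points are arrays, bars are the group mean and SD (not drawn for the 2 early biopsy lines), and the dotted line is the middle of the array medians; all gliomas sit above all cortices for Mcl1 and Bak1 and below them for Bcl2l2.

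Mcl1 was the survival gene that rose. Its 5 cortices read 8.67, 8.80, 9.12, 9.07 and 8.99. The p53null gliomas ran from 10.48 through a median of 11.08 to 11.64, and the p53R172H gliomas from 9.85 through 11.02 to 11.60. Every glioma therefore lay above every cortex, the lowest being the glioma of array 58, one of the 3 with near-cortex neuron scores. The mean difference was 2.03 ± 0.17 (SE), a 4.09-fold higher signal (limma, adjusted p = 1.78e-11). All 6 probe sets of Mcl1 rose, but not by the same amount: the pair 1448503_at and 1416881_at differed by 2.03 and 2.04, and the other 4 by 0.69 to 0.82. The direction thus rests on 6 probe sets and the 4-fold size on 2 of them, and the cause of the gap was not tested.

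Bcl2l2, which encodes the survival protein BCL-W, moved the other way. Its cortices lay within a narrow range, at 10.54, 10.52, 10.56, 10.67 and 10.45. The p53null gliomas ran from 8.28 through 9.43 to 10.10, and the p53R172H gliomas from 7.82 through 9.09 to 10.44. All 22 gliomas lay below the lowest cortex, and the 3 highest were those of arrays 58, 45 and 38, at 10.44, 10.10 and 9.93. The mean fell by 1.41 ± 0.23 on the log2 scale (limma, adjusted p = 5.36e-06), and 3 of its 4 probe sets fell. Without those 3 gliomas it remained below cortex and past the threshold.

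Bcl2l1 fell by less. Its cortices read 9.52, 9.18, 9.19, 9.27 and 9.37. The p53null gliomas ran from 8.11 through 8.58 to 9.71 and the p53R172H gliomas from 7.62 through 8.53 to 9.42, so that 20 of 22 lay below the lowest cortex. The mean fell by 0.72 ± 0.20 (limma, adjusted p = 0.00335), and 3 of 4 probe sets fell, the fourth being dim in both groups at 3.59 and 3.60. The glioma of array 45, with a near-cortex neuron score, was the highest of all 40 arrays for this gene at 9.71.

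Bcl2, the founding survival gene, did not pass with its brightest probe set (difference -0.59, 95% confidence interval -1.16 to -0.03, limma adjusted p = 0.0794). Its cortices read 8.60, 8.57, 8.43, 8.32 and 8.75, and the 22 gliomas ran from 6.64 through 7.97 to 8.78, with 15 below the lowest cortex. Its 5 probe sets disagreed. The probe sets 1437122_at and 1422938_at fell, by 0.99 and 0.42, while 1440770_at rose by 0.81 from a cortex mean of 3.89, which lies below every array median. The brightest probe set passed with cyclic loess (-0.78), with weighted arrays (-0.67) and once the 3 gliomas with near-cortex neuron scores were left out (-0.67).

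**Figure D2:**
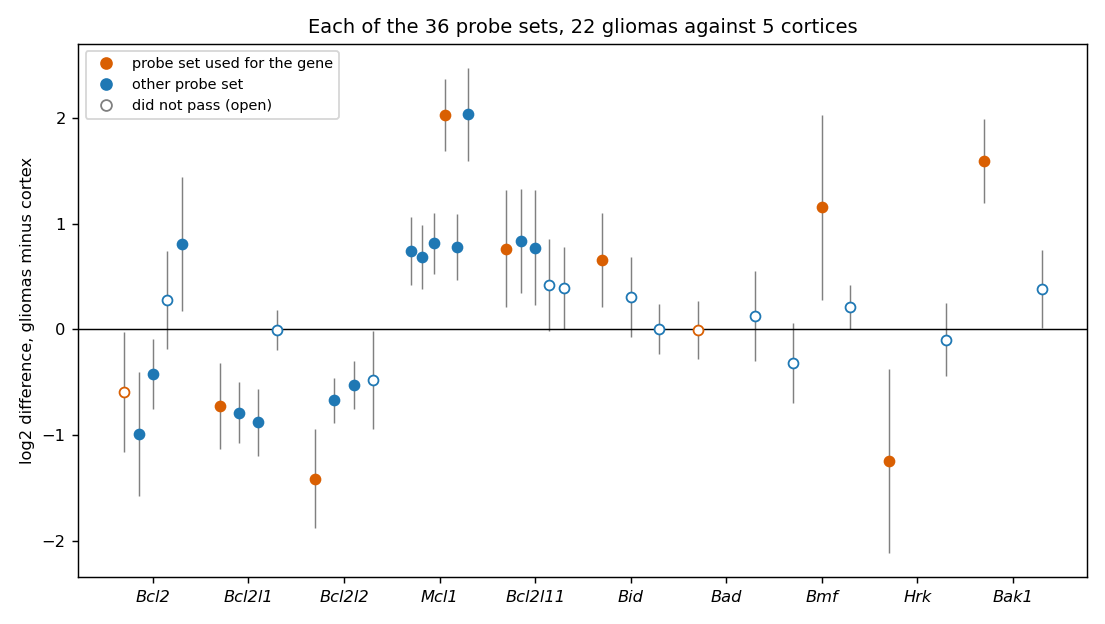
Log2 difference between 22 gliomas and 5 cortices (y axis) for each of the 36 probe sets, by gene (x axis), with 95% confidence intervals; filled points passed the test and orange points are the probe sets used for the genes. All 6 Mcl1 probe sets lie above 0, the Bcl2 probe sets lie on both sides, and the 2 Bad probe sets lie near 0.

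Bak1, the effector, was higher in every glioma than in every cortex. Its cortices read 5.67, 5.14, 5.44, 4.74 and 5.49, 2 of them below their own array's median. The p53null gliomas ran from 6.41 through 6.96 to 7.28 and the p53R172H gliomas from 6.03 through 7.01 to 7.78. The mean difference was 1.59 ± 0.20, or 3.02-fold (limma, adjusted p = 4.73e-08). The second Bak1 probe set was dim in cortex (4.11) and did not pass (difference 0.38, adjusted p = 0.0834). With cortex this dim, the fold for Bak1 rests on signals close to background on the cortex side.

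Of the BH3-only genes, Bmf, Bcl2l11 and Bid rose and Hrk fell. Bmf, a sensor of cytoskeletal stress and loss of attachment, read 5.08, 4.87, 4.84, 5.13 and 4.76 in cortex, below the array median on all 5 arrays. Gliomas ran from 4.61 through 6.07 to 7.53, and 19 of 22 lay above the highest cortex (difference 1.16 ± 0.43, limma adjusted p = 0.0263). Only 1 of its 3 probe sets passed.

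Bcl2l11, which encodes BIM, a binder of all survival proteins, read 7.97, 8.54, 7.77, 8.21 and 7.55 in cortex. Gliomas ran from 7.51 through 8.80 to 9.73, overlapping cortex, with 14 of 22 above it (difference 0.76 ± 0.27, limma adjusted p = 0.0203). Its 3 brightest probe sets rose by 0.76 to 0.84, and the other 2 differed by 0.39 and 0.42 without passing.

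Bid, which links death receptors to mitochondria once caspase-8 cuts it, read 6.97, 6.58, 6.34, 6.67 and 6.75 in cortex. Gliomas ran from 6.38 through 7.46 to 8.17, with 16 of 22 above the highest cortex (difference 0.66 ± 0.22, limma adjusted p = 0.0127). The remaining 2 of its 3 probe sets did not pass.

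Hrk, a BH3-only gene best known from dying neurons, read 7.75, 8.80, 8.15, 8.84 and 8.31 in cortex. Gliomas spread more widely than for any other of the 10 genes, from 5.97 through 6.84 to 9.71 (SD 1.01, n = 22), and 17 lay below the lowest cortex. The mean fell by 1.24 ± 0.43 (limma, adjusted p = 0.0165). The p53R172H glioma of array 50 was the exception, at 9.71, above every cortex. The second Hrk probe set differed by -0.10 (adjusted p = 0.681). The neuron list fell in the same comparison as Hrk, and its part in the result was not tested.

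Bad, whose protein is held inactive by survival kinases, averaged 8.82 in both groups, with an SD of 0.31 over the 22 gliomas and 0.06 over the cortices. The 95% confidence interval of the difference ran from -0.28 to 0.27, and neither of its 2 probe sets passed.

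The calls for Bmf, Bcl2l11, Bid and Hrk depended on the controls or on the choice of probe set. With the probe sets of a gene averaged, Bmf (0.35), Bid (0.32) and Hrk (-0.67) no longer passed. With only the 3 Cre-positive cortices, 4 of 10 genes passed (Mcl1, Bak1, Bcl2l2 and Bcl2l1), and without the cortex of array 32, 5 did, Hrk being added to these. With the Cre-positive cortices the differences were 0.68 for Bcl2l11, 0.69 for Bid, 1.16 for Bmf and -1.10 for Hrk. Over all 5 cortices they were 0.76, 0.66, 1.16 and -1.24 in turn. Fewer controls leave less power for every gene, and shares over all genes in these settings are not given here.

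Each genotype was also set against the same 5 cortices, so the 2 comparisons share their controls. In p53null gliomas 6 of 10 passed (background 42.7%), and in p53R172H gliomas 8 of 10 (background 45.8%). Mcl1 differed by 2.08 and 1.98, Bak1 by 1.61 and 1.58, Bcl2l2 by -1.28 and -1.55, Bcl2l1 by -0.63 and -0.82, and Hrk by -1.19 and -1.30, in p53null and p53R172H gliomas in turn, all past the threshold. Bcl2 passed in p53null gliomas alone (-0.74, limma adjusted p = 0.0469, beside -0.44 and 0.242). Bcl2l11, Bid and Bmf passed in p53R172H gliomas alone, at 0.86, 0.76 and 1.27, beside 0.67, 0.56 and 1.05 in p53null gliomas. By probe set, Bmf went both ways in p53R172H gliomas, with 1 of 3 up and 1 down. The one that fell, 1458325_x_at, was dim, averaging 4.98 in cortex and 4.39 in p53R172H gliomas, below every array median.

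Tested directly, 0 of the 10 genes passed between p53R172H and p53null gliomas in limma, where 0.0330% of all genes passed (6 of 18193). At an unadjusted p under 0.05 there were 0 of the 10, beside 2024 of the 18193 genes. This comparison asks what the point mutant adds to loss of p53. The intervals show what could have been missed. For Mcl1 the difference was -0.10, with a 95% confidence interval of -0.39 to 0.19, and for Bak1 it was -0.02, from -0.36 to 0.32. Bbc3 and Pmaip1, which encode the p53 targets PUMA and NOXA, did not pass either. The interval was widest for Hrk, from -0.86 to 0.64, and for Bmf, from -0.54 to 0.97.

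**Figure D3:**
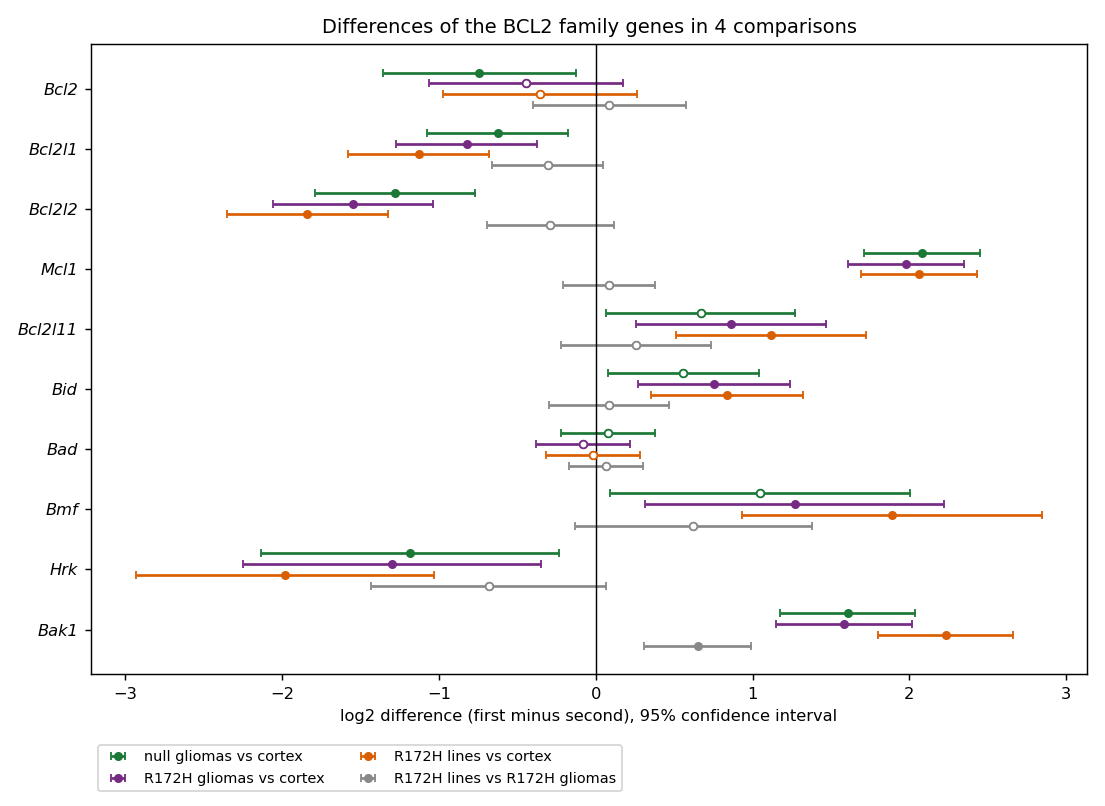
Log2 differences (x axis) with 95% confidence intervals for the 10 genes (y axis) in 4 comparisons by limma; filled points passed at an adjusted p under 0.05. Mcl1 and Bak1 lie right of 0 and Bcl2l2, Bcl2l1 and Hrk left of it in all 3 comparisons with cortex, and between lines and gliomas only Bak1 is filled.

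Once tumors had been taken into culture, 1 of the 10 genes passed between p53R172H lines and p53R172H gliomas, against 13.7% of all genes, or 7.24% for rises alone. By probe set it was 1 of 36, where 4185 of all 34945 probe sets passed. The methods describe these tumors and lines as pairs, but the labels do not say which belong together, so the model treats them as unpaired. The gene that passed was Bak1, which was 0.65 ± 0.17 higher in lines (limma, adjusted p = 0.00769). Lines ran from 7.14 through 7.67 to 8.02, and 4 of 11 lay above the highest p53R172H glioma. The Mcl1 difference was 0.08, with an interval of -0.21 to 0.38, so a change as large as that between cortex and tumor lies outside it. Bmf (0.62, interval -0.13 to 1.38) and Hrk (-0.68, interval -1.43 to 0.07) had wider intervals.

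The p53R172H lines, with low microglia and neuron scores, were set against the same 5 cortices as the gliomas. In limma 8 of 10 genes passed, against 49.8% of all genes, with 5 up (background 25.5%) and 3 down (background 24.3%), and 5 did not overlap with cortex (Mcl1, Bak1, Bcl2l1, Bcl2l2 and Hrk), as did 31.3% of all genes. Lines read 10.69, 10.87 and 11.54 for Mcl1 (lowest, median, highest), a difference from cortex of 2.06 ± 0.18 (adjusted p = 4.1e-11). Bcl2l2 spanned 8.40 to 9.04 in lines, with an SD of 0.21 against 0.61 in gliomas, and fell by 1.84 (adjusted p = 1.76e-07). Mcl1 averaged 10.99 in lines, beside 10.91 in p53R172H gliomas, with its brightest probe set, and 1416881_at also averaged more in lines (8.68 beside 8.45). The probe sets 1416880_at, 1437527_x_at, 1456243_x_at and 1456381_x_at averaged less in lines, at 9.42 to 10.39 beside 9.63 to 10.65. In cortex those averaged 8.75 to 9.88, so the size of 2.06 does not rest on them. The defining microglia genes were below the array median in lines, and their part in the Mcl1 level was not tested.

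Among the remaining genes in lines, Bak1 rose by 2.23, Bmf by 1.89, Bcl2l11 by 1.12 and Bid by 0.84, and Bcl2l1 fell by 1.13 and Hrk by 1.98. Hrk lines ran from 5.66 through 6.03 to 7.74, all below the lowest cortex. Bmf varied most, from 4.77 to 9.04, with 10 of 11 lines above cortex. By probe set, 28 of 36 passed (background 49.6%), including both of Bak1, all 4 of Bcl2l2, all 5 of Bcl2l11 and all 6 of Mcl1. Those of Bcl2 again went both ways, with 2 up and 1 down.

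Between the 2 early biopsy lines and the 11 p53R172H lines, 0 of the 10 genes passed in limma and 0 had an unadjusted p under 0.05, and no gene on the array passed (0% of 18193, with 515 at an unadjusted p under 0.05). Mcl1 read 10.93 and 11.37, Bak1 7.20 and 7.58, Bcl2l2 8.49 and 8.27, and Hrk 6.06 and 6.04. All lay within the range of the later lines except 1 value of Bcl2l2, at 8.27 against a lowest of 8.40. With 2 lines the intervals were wide, for Bmf from -2.12 to 0.61.

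Gliomas differed among themselves in how much neuron and cycling RNA they held, so the 10 genes were set against 3 marker scores, neuron, microglia and cycling, which gives 30 relations. For each, a two-sided p came from 100000 permutations, with Benjamini-Hochberg adjustment over the 30. Over all 22 gliomas 5 relations passed by Pearson's r. Bcl2l1 (r = 0.72, adjusted permutation p = 0.00225), Hrk (0.66, 0.0093) and Bcl2 (0.58, 0.0271) were higher with the neuron score, and Bcl2l2 (-0.78, 0.0003) and Bcl2l1 (-0.74, 0.0058) were lower with the cycling score. By Spearman's rho over the same 22, Bcl2l1 with cycling did not pass (-0.40, adjusted permutation p = 0.197), while the others did. On the neuron score the pooled values span a separate cluster, the gliomas of arrays 38, 45 and 58. On the cycling score only arrays 45 (1.77) and 58 (1.86) lay apart, while array 38 was at 4.50, beside 4.84 for array 48. Without the 2 gliomas farthest from the median score only Bcl2l1 with neurons (0.65, 0.035) and Bcl2l2 with cycling (-0.70, 0.0126) passed. For the neuron score those 2 were of arrays 38 and 58, so array 45 of the cluster stayed in. For the cycling score they were of arrays 45 and 58.

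**Figure D4:**
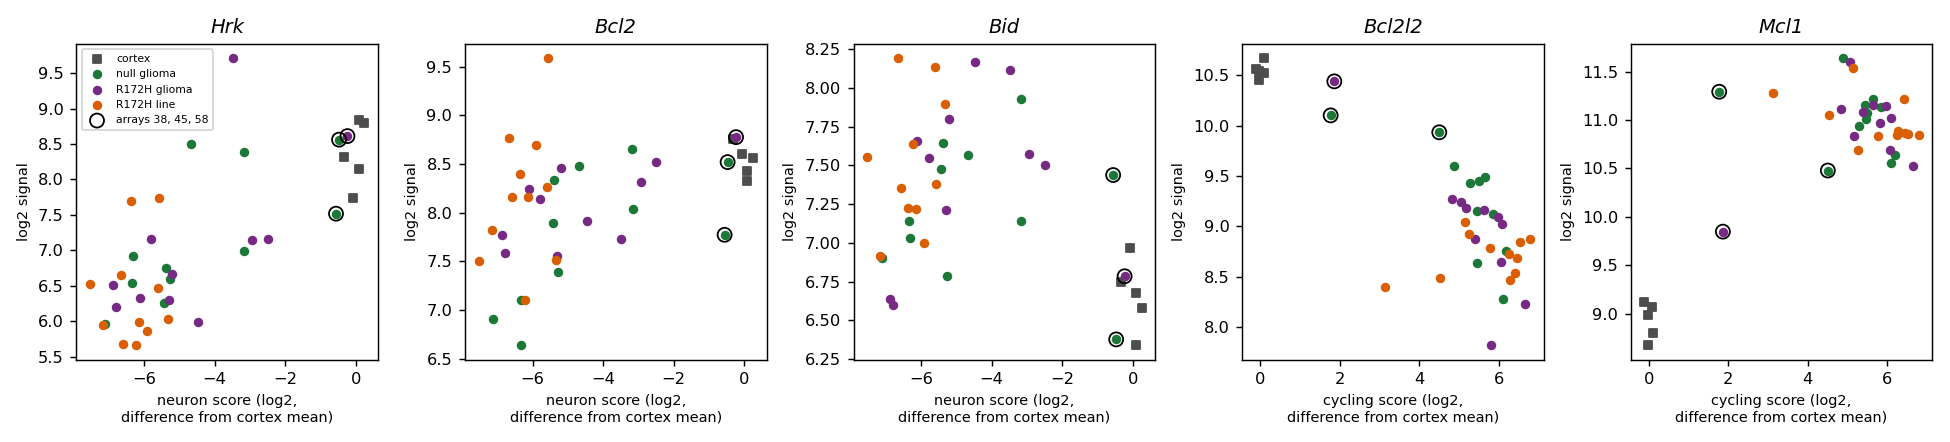
Log2 signal of 5 genes (y axes) against the neuron or cycling score (x axes, mean log2 difference of the marker genes from the cortex mean), with points for cortices, gliomas and p53R172H lines and circles around the gliomas of arrays 38, 45 and 58. The circled gliomas lie between cortex and the rest for Bcl2l2, and in Mcl1 those of arrays 58 (9.85) and 38 (10.48) lie lowest among the gliomas while that of array 45 (11.29) lies near the top.

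Over the 19 gliomas outside that cluster, a set chosen after seeing the data, none of those 5 relations passed by Pearson's r. For the neuron score, r was 0.61 for Bcl2 (adjusted permutation p = 0.0607), 0.56 for Hrk (0.0619), 0.58 for Bid (0.0619) and 0.42 for Bcl2l1 (0.312), and for the cycling score it was -0.63 for Bcl2l2 (0.0531) and -0.15 for Bcl2l1 (0.62). By Spearman's rho, 3 relations passed over the 19, each with an adjusted permutation p of 0.0498: Bcl2 (rho = 0.63) and Hrk (0.63) with neurons and Bcl2l2 (-0.67) with cycling. The 2 pooled values of Bcl2l1 were thus smaller, and not past the threshold, outside the cluster.

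Mcl1 and the cycling score gave opposite signs in the 2 sets. Over all 22 gliomas r was 0.16 (adjusted permutation p = 0.58), with -0.32 in p53null and 0.55 in p53R172H gliomas. Without the 2 farthest, of arrays 45 and 58, it was -0.39 (adjusted permutation p = 0.249). The 19 also leave out array 38, which did not lie apart on the cycling score. Over the 19 it was -0.71 (adjusted permutation p = 0.0216), with Spearman's rho of -0.55 (adjusted permutation p = 0.0763). The sign thus differed with which of the gliomas of arrays 38, 45 and 58 were included.

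Bad had an SD of 0.26 over the lines, above only Mcl1 (0.25) and Bcl2l2 (0.21) among the 10 genes. It lies on chromosome 19, and its signal in the 11 lines was set against the median of 608 other genes of that chromosome, since chromosome gains and losses differ between tumors of this model. Pearson's r was 0.67 (permutation p = 0.0280) and Spearman's rho 0.71 (permutation p = 0.0181). Without the 2 lines farthest from the median, of arrays 63 and 65, r was 0.70 (permutation p = 0.0356). Bad ran from 8.41 in the line of array 61 to 9.22 in that of array 68. Chromosome level was read from expression alone, dim genes included, and DNA copy number was not analysed here. No other gene was set against that level, so whether Bad follows it more closely than other genes was not tested.

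**Figure D5:**
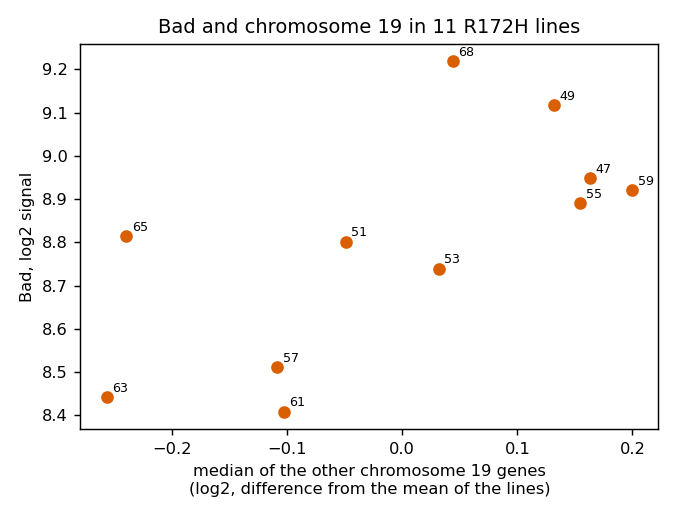
Bad log2 signal (y axis) against the median difference of the other chromosome 19 genes from the mean of the lines (x axis, log2) for the 11 p53R172H lines, numbered by array. Lines with a lower chromosome 19 level have lower Bad, the line of array 65 being the farthest from this trend.

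The genes most alike to each gene over the 40 arrays were found by Pearson's r, which includes the differences between groups and is given only as a measure of likeness. For Mcl1 they were Rpl10a (0.92), Cdkn2a (0.92) and Rplp0 (0.91), encoding a pair of ribosomal proteins and the tumor suppressors p16Ink4a and p19Arf. For Hrk they were Camsap3 (0.88), Islr2 (0.88) and Kcns2 (0.87), and for Bcl2l2 Camta2 (0.90), Gm10419 (0.89) and Lzts3 (0.89). Bcl2l1 was most alike to Ppp1r13b (0.87), Trnp1 (0.85) and Smad7 (0.84), and Bak1 to Rnf122 (0.89), Adam17 (0.88) and Ssr3 (0.87). For Bcl2l11 they were Xpc (0.78), Btbd7 (0.78) and Pknox1 (0.77), for Bid Tars (0.80), Rbm19 (0.79) and Gatad2a (0.78), and for Bmf Dcaf12 (0.77), Sowahc (0.77) and Prxl2c (0.75).

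Of the other BCL2 family genes, 10 of 15 listed were measured, and Bax was not analysed here. Between gliomas and cortex 3 rose (Bcl2l12 by 0.75, Bbc3 by 0.49 and Bcl2l13 by 0.40) and 1 fell (Bcl2l14 by 0.31), so that 4 of 10 passed, below the 47.2% of all genes. The list median was 0.18, beside -0.03 over all genes. Bbc3, the p53-induced killer PUMA, passed in limma with an adjusted p of 0.0436. Pmaip1, which encodes NOXA, the BH3-only partner of MCL1, did not pass (difference 0.95, adjusted p = 0.146), and neither did Bok, an effector relative (0.07). In lines against p53R172H gliomas, Bcl2l12 rose by 2.07 and Bcl2l13 by 0.59, and Pmaip1 fell by 1.35, which is 3 of 10 against 13.7% of all genes. Against cortex, lines were higher for 3 of the 10 (25.5% of all genes rose), Bcl2l12 (2.62), Bcl2l13 (1.01) and Bbc3 (0.85).

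Downstream and upstream of mitochondria, 27 of 30 listed apoptosis genes were measured, of which 13 rose and 3 fell in gliomas, beside 22.6% and 24.7% of all genes. The list median was 0.35, beside -0.03 over all genes. Birc5, the survivin gene, which also acts in mitosis, rose from a cortex mean of 3.93, below every array median, so its difference of 5.98 is measured from background. Among the others, the highest differences were in Fadd (2.86), the death receptor adaptor, Casp2 (2.33) and Casp8 (1.96), the initiator that cuts BID. The 3 that fell were Casp9 (-0.91), the initiator acting after cytochrome c release, Vdac1 (-0.69), an outer membrane channel, and Endog (-0.47). The cycling list rose in the same comparison as Birc5, and its part in that rise was not tested.

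In lines against p53R172H gliomas, Casp6 (1.49), Aifm1 (0.69) and Tmbim6 (0.46) rose, and Casp8 (-1.81) and Birc3 (-1.23) fell, 5 of 27 against 13.7% of all genes. Casp8 differed from cortex by -0.03 in lines, with an adjusted p of 0.958 in limma. The microglia list fell in lines for 11 of 11 genes, with scores of -4.45 to -3.96 beside -0.81 to 2.12 in gliomas, and its part in the Casp8 and Birc3 differences was not tested. Against cortex, 10 of the 27 rose in lines (25.5% of all genes), among them Birc5 (5.98, again from background in cortex), Casp6 (3.04), Fadd (2.64) and Casp2 (2.30), and 2 fell, Vdac1 (-0.39) and Dffa (-0.30).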

How the data were processed

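The authors hybridised RNA to Affymetrix Mouse Genome 430 2.0 arrays and deposited values normalized by RMA on the log2 scale, a base judged by their range. Probe sets were named by the platform annotation, which can be old, and only those naming 1 gene were used (34945 of 45101). A gene took its brightest probe set over the 40 arrays. With limma 3.58.1 (R 4.3.3), 1 model of 5 groups was fitted to 18193 genes, gliomas being the mean of both genotypes, with Benjamini-Hochberg adjustment over all genes and a threshold of 0.05; 34945 probe sets were fitted in the same way. Scores are mean differences of marker genes from the cortex mean. The script was tested on simulated data. The genes, lists and tests were chosen with earlier results of these data known. Genes outside the 10 were named by rule: per list and comparison the up to 4 that rose and fell most, Bbc3, Pmaip1 and Bok, and the 3 most alike to each gene that passed. Promoters are RefSeq's (GRCm38.p6). Alternatives covered the probe set rule, dim genes, samples in the model, normalization, array weights, moderation, threshold, controls and left-out arrays. The number of arrays, 5 cortices above all, limits the precision. Labels do not say whether samples of a group came from separate mice. The paper counts 11 primary tumor tissues for each genotype and 5 cortical tissues from control mice, without stating 1 mouse each. The spread behind the p-values may thus be partly technical. Within groups arrays correlated at 0.854 to 0.992 over all 45101 probe sets, and no 2 were identical.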

Additional observations from a re-analysis of the deposited data

Results flagged for a closer look

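Bad in the cortex of array 32 read 8.71, below the other 4 cortices (8.83 to 8.87), a gap of 0.746 of the range of the 5 values. Such a gap is met by chance in about 1 in 20 groups of samples, and all 10 genes were searched, so a single hit is not rare. Bad did not pass any comparison with cortex.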

How the results depend on the processing

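The count of genes that passed between gliomas and cortex, 8 in the report, was 5 with probe sets averaged per gene, 4 with only the Cre-positive cortices and 5 to 8 when each cortex was left out, lowest without that of array 32; it was 7 to 9 under the other alternatives. Leaving out cortices lowers the power for every gene, and shares over all genes under these alternatives are not given here. Mcl1, Bak1, Bcl2l2 and Bcl2l1 kept their direction and passed in all 17 settings, the reported one included. Bmf missed the threshold in 6, Bcl2l11 and Hrk in 4 each and Bid in 3, and Bcl2 crossed it in 4. The counts for p53R172H against p53null gliomas (0), lines against p53R172H gliomas (1), lines against cortex (8) and early biopsy lines (0) did not change in any alternative run, single cortices or early biopsy lines left out included. Probe sets that passed between lines and p53R172H gliomas were 2 with array weights, beside 1. Relations with marker scores that passed were 5 over all 22 gliomas, 2 without the 2 gliomas farthest from the median score and 1 without those of arrays 38, 45 and 58, an alternative chosen after seeing the data. That 1 was Mcl1 with the cycling score, which was not among the 5, and none of the 5 passed there. The relation of Bad with chromosome 19 had r = 0.67 and, without the 2 farthest lines, 0.70. Cyclic loess moved the median of all genes by less than 0.1 in every comparison.

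Mcl1 against the cycling score changed sign, from r = 0.163 over 22 gliomas to -0.388 without the 2 farthest, neither past the threshold, and to -0.707, past it, without arrays 38, 45 and 58. The differences that changed sign were all below the threshold. With probe sets averaged these were Bad in gliomas against cortex (0.064) and in lines against cortex (0.106), Bmf between genotypes (-0.0972), Mcl1 (-0.0992) in lines against gliomas, Bcl2 in lines against cortex (0.142), and Bcl2 (0.242) and Mcl1 (-0.0084) in early biopsy lines. With cyclic loess they were Bcl2 (-0.0131), Bid (-0.0179) and Bad (-0.0324) in lines against gliomas. With array weights they were Bad in gliomas against cortex (0.00616) and Mcl1 in lines against gliomas (-0.0662). Bad in gliomas against cortex was also 0.00767 with the Cre-positive cortices, -0.0275 to 0.0112 with single cortices left out and 0.0151 without arrays 38, 45 and 58. Without those 3, Bcl2l11 between genotypes was -0.0177 and Mcl1 in lines against gliomas -0.0228. With 1 early biopsy line left out, Bcl2 ranged from -0.393 to 0.117, Bad from -0.342 to 0.085, Bak1 from -0.326 to 0.0553 and Mcl1 from -0.0636 to 0.374. The cause of these shifts was not tested. No paired analysis was possible because the labels do not tie the lines to the tumors they came from.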
